A study of Drosophila melanogaster with 12 samples.

Results

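Glutathione and thioredoxin keep the inside of a cell reduced, and the genes described here make glutathione, remove superoxide and hydrogen peroxide, or control the expression of such enzymes. The 8 genes are Gclm and Gclc, cnc and Keap1, Sod1, Sod2, Cat and Trxr1. Their probe sets were found by gene symbol in the annotation of the array: 7 of the 8 genes had at least 1 probe set, which gave 10 probe sets of the 13966 on the array. Sod1, which encodes the cytoplasmic superoxide dismutase, had no probe set under that symbol in the annotation used here and was not analysed. The list was drawn up with earlier results of these arrays in view: Gclm was selected on its lower level when 20-hydroxyecdysone (20E) was added to cycloheximide, so that difference is given as a description without a test. For the other genes the sources used here name no measured value behind the choice. Their p-values are given but may not be free of that choice.

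The first committed step of glutathione synthesis joins glutamate to cysteine. It is carried out by glutamate-cysteine ligase, whose catalytic subunit is encoded by Gclc and whose regulatory, or modifier, subunit is encoded by Gclm. In flies, as in mammals, oxidants and many foreign compounds induce such genes through the transcription factor Cap'n'collar (cnc, the fly counterpart of Nrf2), which the adaptor protein Keap1 holds in check. Flies lack glutathione reductase, and thioredoxin reductase (Trxr1) supplies the reducing power for both systems. Cap'n'collar and Keap1 have also been linked in Drosophila to the control of ecdysone-related genes, although cnc encodes several protein forms and not all of them act in the oxidant response.

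The study asked which transcripts of Drosophila melanogaster change when cultured larval organs meet 20E, the steroid hormone that starts metamorphosis, and which of these changes still occur when protein synthesis is blocked with cycloheximide. Organs were dissected from w1118 larvae of the third instar that had begun to wander and to clear their gut, 8 animals to a well, held for 1 h in medium and then cultured for 6 h at 25 °C. There were 4 groups of 3 arrays: no hormone, 5 µM 20E, 85 µM cycloheximide, and 5 µM 20E plus 85 µM cycloheximide. The strain, stage, medium and culture were shared by all groups, cultures for the triplicates were harvested separately, and each array therefore reads pooled organs of several animals rather than 1 cell type.

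The deposited values are linear dChip intensities, in which 1 probe set is compared between arrays but not with another probe set. The 12 arrays had median intensities of 114 to 118, and 15.7% to 17.5% of probe sets were under 50. At least 2 markers each of salivary gland, fat body, midgut, imaginal disc, haemocytes, nervous system, Malpighian tubule, muscle and testis had a mean of 50 or more in every group. GEO's source label reads whole animal, while the titles and methods describe organ culture. The summed intensity of the 9 testis markers ran from 2629 to 5224 and that of the 4 measured muscle markers from 1451 to 3151 over the arrays, with a wide spread inside every group. Such a sum is carried by its brightest markers. In the 20E arrays the Mst genes and dj took the order of the testis sum, while can, aly and bam did not. Of all the organ markers tested, 1 imaginal disc gene was called, higher with cycloheximide than without hormone. The imaginal disc sum was 1552 to 1612 with cycloheximide and 1411 to 1536 without hormone. It was 1510 to 1637 with both agents and 1439 to 1486 with 20E. The Malpighian tubule sum was 373 to 400 without hormone, 347 to 369 with 20E, 353 to 365 with cycloheximide and 347 to 379 with both agents. The part of these sums in the member values was not tested. In such bulk samples fewer cells of a type and less RNA per cell cannot be told apart.

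A probe set was called when the adjusted p from limma, corrected by the Benjamini-Hochberg method over all 13966 probe sets, was under 0.1 and the change was at least 1.3-fold. Log2 fold changes written as a value ± an error carry the standard error of the fit. With 20E alone, 1 of the 10 probe sets was called higher and 0 lower, against 1.76% and 0.394% of all probe sets. Gclm was tested only for 20E alone and is left out of the other counts. With 20E in the presence of cycloheximide, 1 tested probe set was higher and none lower, against 0.68% and 0.573%. Cycloheximide alone gave 1 higher and none lower, against 3.55% and 0.866%. Cycloheximide on top of 20E gave 0 higher and 1 lower, against 0.981% and 1.01%. For the difference between the effect of 20E with cycloheximide and its effect alone, no fold limit was set. No tested probe set was called there, against 0.0788% higher and 0.0573% lower of all probe sets. The counts over all probe sets moved by over 1.5 times with several single arrays left out, for example for 20E alone from 246 higher and 55 lower to 88 and 17 without no hormone replicate 2 and for the difference from 11 and 8 to 112 and 162 without replicate 2 of both agents. The median log2 fold change of the 10 probe sets lay between 0.02 and 0.07 over these 5 comparisons, and that of all probe sets between -0.03 and 0.02. Comparisons that share a group of arrays, such as both comparisons with the no hormone arrays, are not independent of each other.

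**Figure D1:**
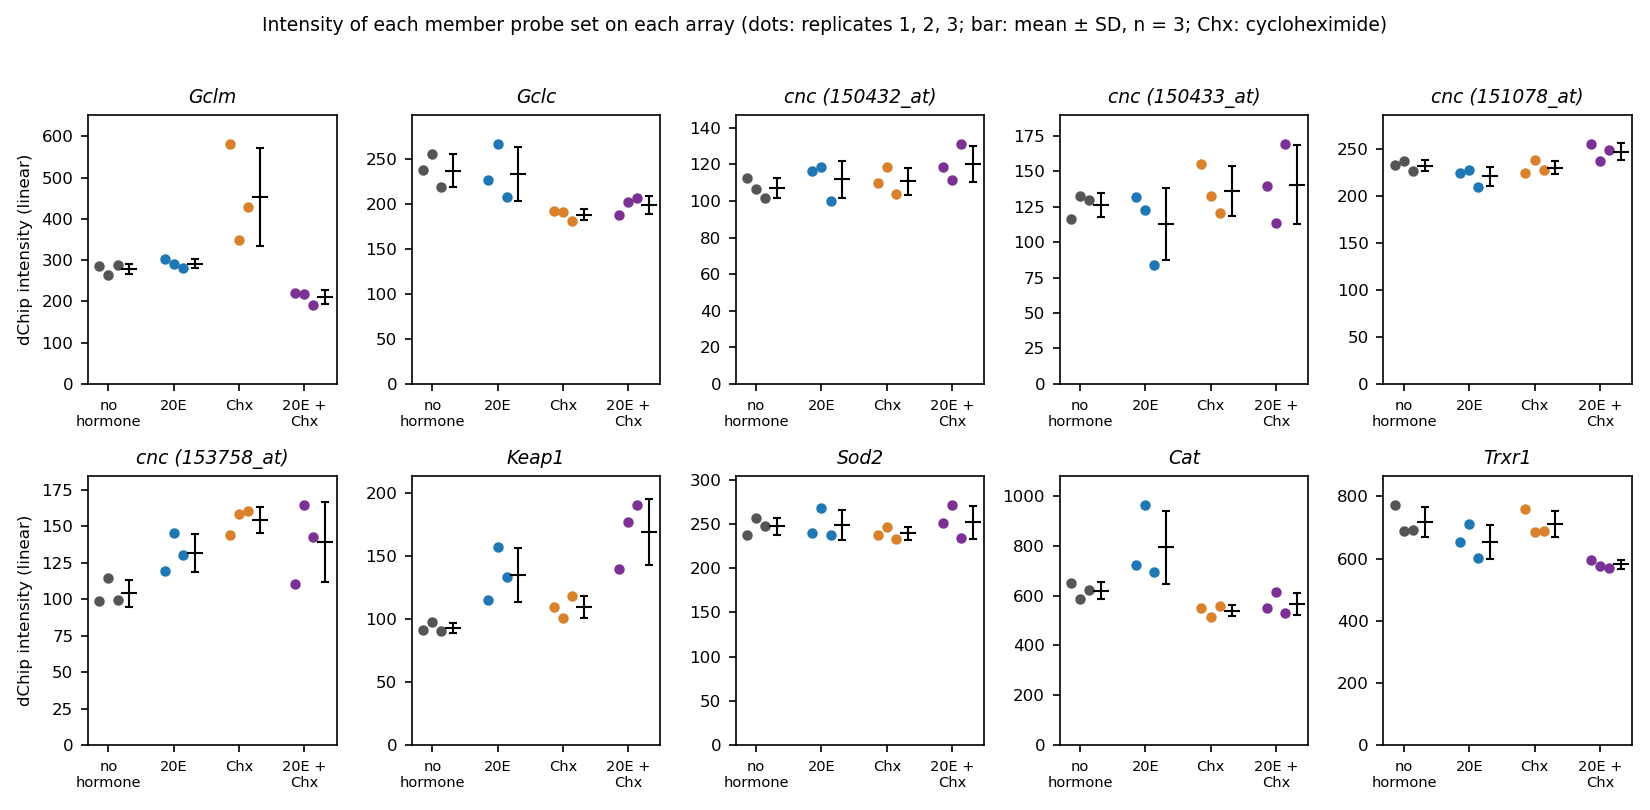
Each panel plots 1 probe set: dChip intensity on a linear axis starting at 0, in the 4 groups, with 1 dot per array and the mean ± SD (n = 3) beside the dots. Gclm runs from 191 to 581 over the 12 arrays and Keap1 from 90.3 to 191, while Sod2 stays between 233 and 271.

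Gclm, the modifier subunit gene, had the widest range of these probe sets, from 191 to 581, a 3.05-fold span over the 12 arrays. Without hormone its intensities were 285, 265 and 288 in replicates 1, 2 and 3. With 20E they were 303, 291 and 282. The 3 hormone-treated arrays overlapped the untreated ones, and the log2 fold change was 0.06 (standard error 0.14, 95% interval -0.25 to 0.38, adjusted p = 0.871 by limma). With cycloheximide alone the intensities were 581, 348 and 429, all above every untreated array and scattered more widely than in any other group (SD 118, against 12.4 without hormone). With both agents they were 221, 218 and 191, which is below every other array of the study. The means therefore ran in the order cycloheximide (453), 20E (292), no hormone (279) and both agents (210, SD 16.8), of which 20E and no hormone did not separate.

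These levels gave Gclm a log2 fold change of -1.08 (standard error 0.14, 2.11-fold lower) for 20E in the presence of cycloheximide. Cycloheximide against no hormone gave 0.67 (standard error 0.14, 1.59-fold higher), and both agents against 20E gave -0.48 (standard error 0.14). No p is given for these 3 values, since each uses arrays on which the gene was taken to have been chosen. The cycloheximide replicates were unequal: without replicate 1, the array at 581, the first value was -0.88 and the second 0.47, and without replicate 2, at 348, they were -1.25 and 0.84. On the 3 cycloheximide arrays the testis marker sum took the same order as Gclm, at 5005, 2885 and 3422. On the arrays with both agents it was 2852, 5224 and 3365, where Gclm was lowest in replicate 3. The part of tissue content in the Gclm values was not tested.

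Gclc, the catalytic subunit gene, spanned 1.47-fold over the 12 arrays. Its intensities were 238, 256 and 219 without hormone and 227, 267 and 207 with 20E, and these groups overlapped throughout. With cycloheximide they were 192, 192 and 182, below every untreated array, and with both agents 188, 203 and 206. The log2 fold change was -0.03 for 20E alone (95% interval -0.23 to 0.17, adjusted p = 0.919) and 0.08 for 20E in the presence of cycloheximide (95% interval -0.12 to 0.28, adjusted p = 0.854). Cycloheximide against no hormone gave -0.33 (standard error 0.09, adjusted p = 0.0686 by limma), which was past the limit on p but, at 1.26-fold, short of the fold limit, so Gclc was not called. Leaving out no hormone replicate 3 brought it past both limits (log2 fold change -0.39, adjusted p = 0.0890), and with no hormone replicate 2 left out the adjusted p was 0.226. Both agents against 20E gave -0.23 (standard error 0.09, adjusted p = 0.290), with all 3 arrays below the 20E arrays.

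The 2 subunit genes thus stood on opposite sides of their untreated level in the cycloheximide arrays and on the same side when both agents were present. Taken against the mean of the no hormone arrays, Gclm was at 1.06, 0.32 and 0.62 on the log2 scale in the 3 cycloheximide arrays, where Gclc was at -0.30, -0.31 and -0.38. With both agents Gclm was at -0.34, -0.36 and -0.55 and Gclc at -0.33, -0.23 and -0.20. Over the 12 arrays, which fall into these groups, Pearson's r between both genes was -0.26, given as a description only.

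**Figure D2:**
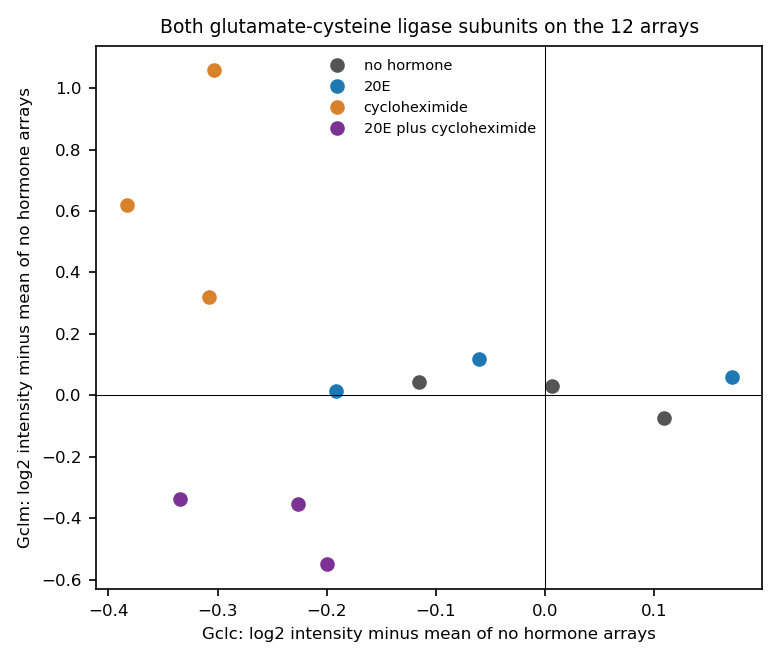
Each dot is 1 of the 12 arrays, with Gclc on the horizontal and Gclm on the vertical axis, both as log2 intensity minus the mean of the 3 no hormone arrays. The cycloheximide arrays lie above 0 for Gclm (0.32 to 1.06) and the arrays with both agents below it (-0.55 to -0.34), while Gclc is below 0 in both groups.

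Over all 12 arrays, the probe sets with 1 gene symbol whose log2 values were most like those of Gclm were ERp44 (Pearson's r = 0.92), CG6040 (0.90), Orai (0.89), CG33229 (0.88) and rdog (0.88). ERp44 encodes a thioredoxin-like protein of the endoplasmic reticulum and Orai a calcium channel of the plasma membrane. Their means moved over a narrower range than that of Gclm: ERp44 had a mean of 475 in the no hormone arrays, 463 in the 20E arrays, 538 in the cycloheximide arrays and 428 where both agents were given. The means of Orai were 114, 105, 148 and 96.4 in the same order. All 5 had their highest mean with cycloheximide and their lowest with both agents, an order that their choice by likeness to Gclm favours. CG6040 was dim, with means of 35.7 to 45.7.

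Keap1, the regulator that restrains Cap'n'collar, was higher with 20E whether or not protein synthesis was blocked. Without hormone the Keap1 intensities were 91.2, 97.6 and 90.3. With 20E they were 115, 157 and 134, all above the untreated arrays, a 1.44-fold rise (0.53 ± 0.13 on the log2 scale, limma's adjusted p = 0.0734). With cycloheximide alone they were 109.9, 101 and 119, and with both agents 139.7, 177 and 191, again without overlap, a 1.53-fold rise (0.61 ± 0.13 on the log2 scale, limma's adjusted p = 0.0507). The comparisons share no arrays. Their p-values are still not fully independent, since 1 estimate of spread serves both and some same-numbered arrays deviated together. The difference between them was 0.08 on the log2 scale (standard error 0.18, 95% interval -0.31 to 0.48, adjusted p = 0.860), an interval that leaves room for a response of either size.

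Both calls of Keap1 lay close to the limit. The rise with 20E alone was no longer called when any 1 array other than 20E replicate 1 was left out, its log2 fold change lying between 0.42 and 0.57 with adjusted p = 0.134 to 0.276 in those 5 fits. The rise in the presence of cycloheximide lost its call without cycloheximide replicates 1 or 2 and without replicates 2 or 3 of both agents, with adjusted p = 0.119 to 0.203 and log2 fold changes of 0.52 to 0.61. A floor of 50 and a fit of only the arrays compared also ended both calls, and SAM the first, with adjusted p = 0.101 to 0.156. In the 20E arrays Keap1 and the testis marker sum took the same order, the latter being 3477, 5016 and 4122, against 4063, 2806 and 2629 without hormone. The orders differed in the other groups: the sum was highest in replicate 1 with cycloheximide and in replicate 2 with both agents, where Keap1 was highest in replicate 3, and highest in replicate 1 without hormone, where Keap1 was highest in replicate 2. With 20E replicate 2 left out, the array with the highest testis sum of that group, the log2 fold change was 0.42. The part of tissue content in the Keap1 values was not tested.

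Keap1 was also 1.18-fold higher on average with cycloheximide than without hormone, with all 3 arrays above, but this did not pass the test (log2 fold change 0.24, 95% interval -0.04 to 0.52, adjusted p = 0.310). Its 4 group means were 93.0 ± 3.99 without hormone, 109.9 ± 8.66 with cycloheximide, 135 ± 21.3 with 20E and 169 ± 26.4 with both agents (SD, n = 3). Both agents against 20E gave 0.32 (standard error 0.13, adjusted p = 0.281), so the upper neighbours in this order did not separate by the test, and their arrays overlapped.

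The transcription factor gene cnc is read by 4 probe sets, and which of its transcript forms each one detects is not given in the sources used here. Only 1 of the 4 was called in any comparison. Probe set 153758_at was called higher with cycloheximide: its intensities were 98.4, 115 and 99.2 without hormone and 144, 158 and 160.1 with cycloheximide, with no overlap (0.57 ± 0.13 on the log2 scale, 1.48-fold, limma's adjusted p = 0.0327). The call was lost when either no hormone replicate 3 (adjusted p = 0.115) or cycloheximide replicate 3 (adjusted p = 0.101) was left out. With 20E the same probe set was at 119, 145 and 130.4, above the untreated arrays, but the change did not pass the test (log2 fold change 0.34, standard error 0.13, adjusted p = 0.255). With both agents it was at 110.3, 164 and 143, and the added 20E gave -0.17 (95% interval -0.45 to 0.12, adjusted p = 0.748). The difference between both effects of 20E on it, -0.50 (standard error 0.18), had adjusted p = 0.264.

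The other cnc probe sets gave no call in the 5 comparisons. Probe set 150432_at ranged from 100.1 to 131 over the 12 arrays, and its log2 fold changes in the 4 pairwise comparisons lay between 0.05 and 0.12. Probe set 151078_at ranged from 209.9 to 255, and its largest change in the 4 pairwise comparisons was 0.16 for both agents against 20E (standard error 0.06, adjusted p = 0.225), with all 3 arrays above the 20E arrays. Probe set 150433_at ranged from 83.9 to 169, with a standard error of 0.18 in each of the 4 pairwise comparisons. For cycloheximide against no hormone these 3 probe sets gave 0.05, -0.01 and 0.11, beside the 0.57 of 153758_at. The 95% intervals of 150432_at (-0.14 to 0.24) and 151078_at (-0.14 to 0.11) lay wholly below that of 153758_at (0.29 to 0.85), while that of 150433_at (-0.28 to 0.49) overlapped it. The difference between probe sets was not tested.

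**Figure D3:**
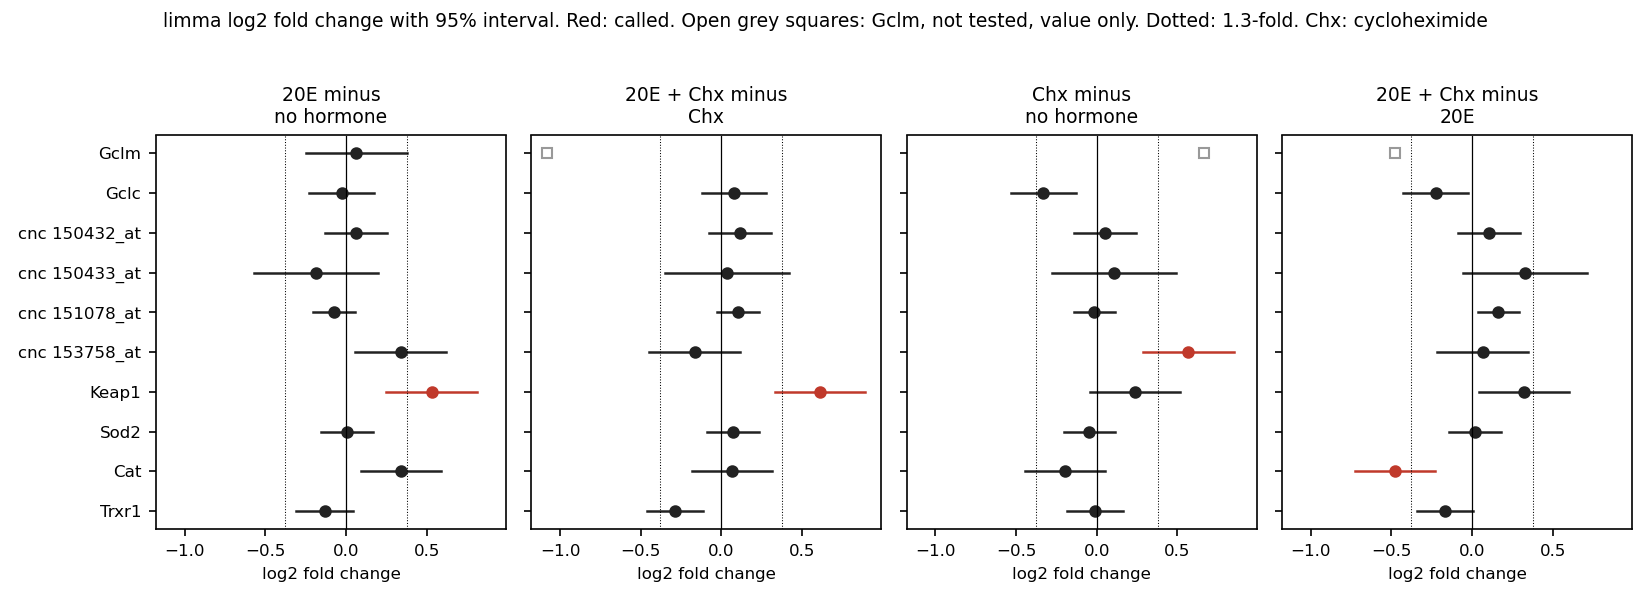
Each panel is 1 comparison and each row 1 probe set, with the log2 fold change from limma on the horizontal axis and its 95% interval as a bar. Filled red marks are called, dotted lines mark 1.3-fold, and open grey squares are Gclm values given without a test or interval, from -1.08 to 0.67. Keap1 is called in both comparisons of 20E, cnc 153758_at with cycloheximide and Cat for both agents against 20E.

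Among the enzymes that remove reactive oxygen, Sod2, the mitochondrial superoxide dismutase gene, was the steadiest. It stayed between 233 and 271 on the 12 arrays, a 1.16-fold span, and its log2 fold changes in the 4 pairwise comparisons lay between -0.05 and 0.07. The 95% interval was -0.15 to 0.17 for 20E alone and -0.09 to 0.23 for 20E in the presence of cycloheximide, so in both comparisons a 1.3-fold change (0.38 on this scale) lies outside it.

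Cat, which encodes catalase, the enzyme that breaks down hydrogen peroxide, had its highest values with 20E alone. The intensities were 652, 585 and 624 without hormone and 725, 964 and 695 with 20E, so all 3 treated arrays were above the untreated ones, but the change did not pass the test (log2 fold change 0.34, standard error 0.11, adjusted p = 0.192). With cycloheximide they were 550.2, 514 and 558, below every untreated array (log2 fold change -0.20, adjusted p = 0.339), and with both agents 551, 615 and 530.5. Both agents against 20E gave a fall that was called, by 0.48 on the log2 scale (standard error 0.11, 1.39-fold, adjusted p = 0.0677 by limma). With cycloheximide present, 20E moved Cat by 0.06 (95% interval -0.18 to 0.31, adjusted p = 0.910). The difference between both effects of 20E was -0.28 (standard error 0.16, adjusted p = 0.437).

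The call of Cat leaned on 20E replicate 2, the array at 964. Without it the log2 fold change was -0.33 and the adjusted p = 0.125. Leaving out replicates 1 or 3 of both agents also ended the call, with adjusted p = 0.158 and 0.222, although the log2 fold changes were still -0.46 and -0.43. So did a floor of 50 (adjusted p = 0.106), SAM and a fit of only the arrays compared (adjusted p = 0.229). The same 20E array held the highest testis marker sum of its group, at 5016, and the part of tissue content in the result was not tested.

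Trxr1, the gene of thioredoxin reductase, was lowest where both agents were present. Its intensities were 771, 688 and 691 without hormone, 652, 709.5 and 600.3 with 20E, 758, 685 and 689 with cycloheximide, and 596, 577 and 569 with both agents. The last group was below all other arrays of the study. The change for 20E in the presence of cycloheximide, -0.29 on the log2 scale (standard error 0.08, 1.22-fold, adjusted p = 0.167 by limma), did not pass the test. For 20E alone it was -0.13 (95% interval -0.31 to 0.04, adjusted p = 0.463) and for cycloheximide alone -0.01 (95% interval -0.19 to 0.16, adjusted p = 0.946). The same group was the lowest for Gclm, which was not tested there. Over the 12 arrays, Pearson's r of Trxr1 was 0.71 with Gclm and -0.74 with Keap1. With the other probe sets it lay between -0.32 and 0.31. These values are again a description.

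Other genes of the same pathways were taken from 6 lists, which were also written with earlier results known. Of the 71 listed genes, 59 had a probe set of their own. For 20E alone 1 was called higher and 2 were called lower, beside 1.76% and 0.394% of all probe sets. For 20E added to cycloheximide 0 and 1 were called, beside 0.68% and 0.573%, for cycloheximide alone 0 and 2, beside 3.55% and 0.866%, and for both agents against 20E 0 and 2, beside 0.981% and 1.01%. None was called for the difference between both effects of 20E by limma. Their median log2 fold change was 0.04, 0.01, -0.03 and -0.10 in the 4 pairwise comparisons, in that order, beside -0.01, 0.02, -0.03 and -0.01 over all probe sets. Of the 17 measured genes that supply or use glutathione, no gene was called for either effect of 20E or for cycloheximide alone. Gss1 and Gss2 of that list had no probe set of their own and were not measured.

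Men, which encodes malic enzyme, a source of NADPH, was the gene of these lists that fell in both comparisons of 20E. Its intensities were 740.0, 666 and 639 without hormone and 389, 443 and 404 with 20E (log2 fold change -0.72, standard error 0.10, adjusted p = 0.00507). With cycloheximide they were 923, 776 and 737, and with both agents 423, 502 and 477 (log2 fold change -0.79, standard error 0.10, adjusted p = 0.00266). The groups did not overlap in either comparison. Both calls held under each alternative run, with adjusted p up to 0.0307. No other of the 7 measured NADPH-supply genes was called in the 5 comparisons. Zw and Pgd of that list had no probe set of their own and were not measured.

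Srx, the gene of sulfiredoxin, which restores overoxidized peroxiredoxins, rose with 20E, from 534, 456 and 413 to 685, 1237 and 753 (log2 fold change 0.89, standard error 0.21, adjusted p = 0.0716). Without 20E replicate 2, the array at 1237, it was 0.63 and no longer called, and it also lost its call without no hormone replicates 2 or 3 or 20E replicate 3, and with a floor of 50, SAM or only the arrays compared (adjusted p up to 0.235 over the alternatives). In the 20E arrays Srx took the order of the testis marker sum, 3477, 5016 and 4122, as it did without hormone. With cycloheximide and with both agents, the array with the highest Srx also held the highest testis sum of its group. The part of tissue content in the Srx values was not tested. In the presence of cycloheximide the change was 0.27 (standard error 0.21, adjusted p = 0.749). The other 10 measured thioredoxin, peroxiredoxin and repair genes gave no call.

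Grx1, a glutaredoxin gene, was called lower for both agents against 20E, at 131, 126 and 120.4 against 166, 183 and 182 (log2 fold change -0.49, standard error 0.09, adjusted p = 0.0211). For 20E alone it was at 0.33 (standard error 0.09, adjusted p = 0.112). Among the partners and targets of cnc, ref(2)P, the fly p62, was lower with cycloheximide, with means of 711 without hormone and 530.2 with cycloheximide (log2 fold change -0.43, adjusted p = 0.0761), a call that ended when any 1 array other than cycloheximide replicate 1 was left out (adjusted p up to 0.168). Without cycloheximide replicate 2 the log2 fold change was -0.29. It was also lower for both agents against 20E, at 424, 402 and 388 against 818, 748 and 736 (log2 fold change -0.92, standard error 0.12, adjusted p = 0.00398). GstD1, a glutathione transferase gene that is used as a readout of cnc activity, was lower with 20E (log2 fold change -0.41, adjusted p = 0.0900) and with cycloheximide (-0.43, adjusted p = 0.0387). Both calls depended on single arrays: the first ended in 5 of 6 fits and the second in 3 of 6 fits with 1 array left out (adjusted p up to 0.313 and 0.137). The first was also lost with a floor of 50, quantile normalization, SAM or only the arrays compared, and the second with only the arrays compared. The family holds close copies of this gene that a probe set may also read. No gene of the 9 other superoxide and peroxide enzymes or of the 8 metal-binding genes was called by limma in any of the 5 comparisons.

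**Figure D4:**
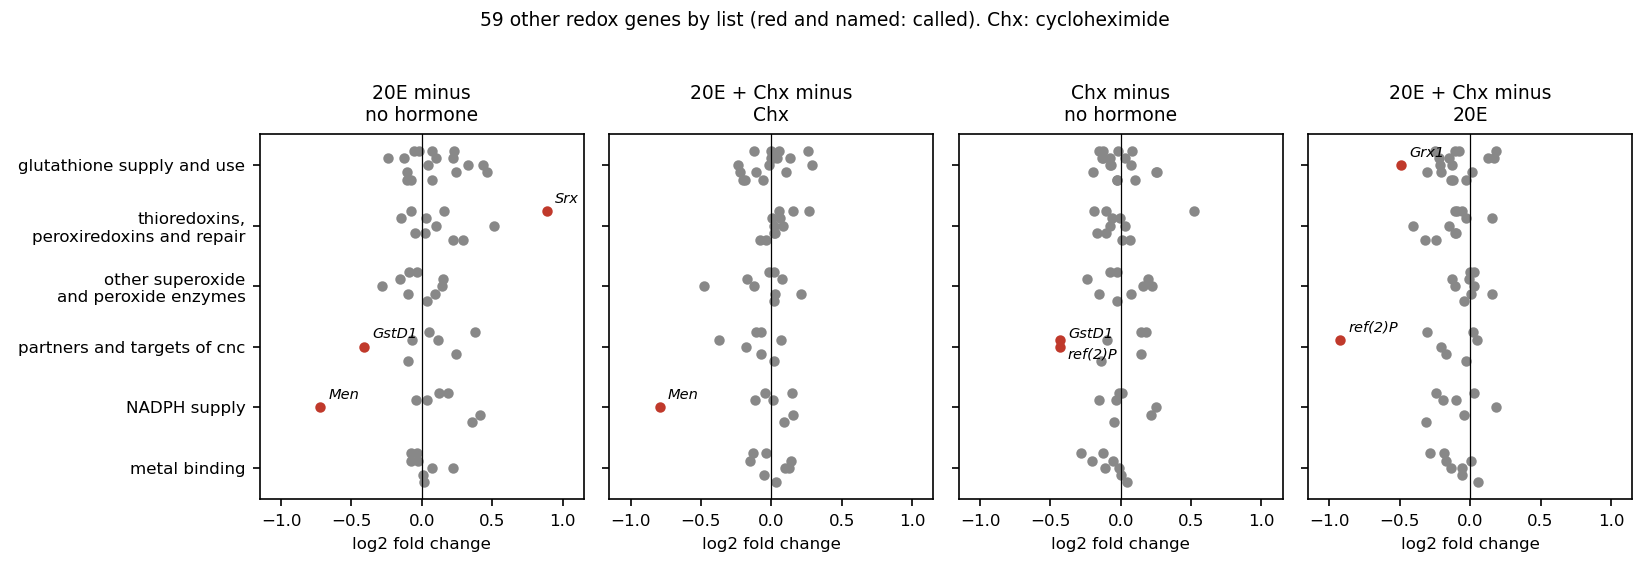
Each panel is 1 comparison and each row 1 list, with 1 dot for each of the 59 measured genes at its log2 fold change from limma; red dots with names were called. The called genes are Srx (0.89), GstD1 and Men with 20E, Men (-0.79) with 20E in the presence of cycloheximide, GstD1 and ref(2)P with cycloheximide, and Grx1 and ref(2)P (-0.92) for both agents against 20E.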

How the data were processed

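RNA of the 12 cultures was hybridized to Affymetrix Drosophila Genome Arrays. The authors scaled the arrays and computed expression values with dChip, and the deposited values are linear intensities for 13966 probe sets, with no detection calls. The annotation paired 12443 probe sets with 1 gene, 327 with several and 1196 with none, and only those with 1 gene were named.

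Intensities under 10 were set to 10 (636 values), and log2 of the deposited intensity was fitted with limma 3.58.1 (R 4.3.3; lmFit, contrasts.fit, eBayes with an intensity trend) in 1 model over all 12 arrays with a mean per group. P-values are two-sided, adjusted over all probe sets. The members and lists were chosen with earlier results of these data known. For that reason Gclm has no p outside 20E against no hormone, a rule widened after the values were seen to include both agents against 20E. Named genes are all probe sets of the members, the called genes of each list (at most 4 a list and comparison) and the 5 probe sets most correlated with Gclm; another gene with several probe sets is read by its brightest one. The methods' SAM was rerun with all 20 label permutations, symmetric limits and the same rate and fold as an alternative. The others were floors of 1 and 50, 16 added in place of a floor, quantile normalization, median centring, no trend, only the arrays compared, the dimmest probe sets left out, an adjusted p under 0.05, each replicate left out and the replicate number as a block. The fit was tested on simulated data. No pair of replicate arrays had copied values (2 to 8 identical values per pair).

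Same-numbered arrays deviated together for cycloheximide and no hormone (correlations of 0.41, 0.21 and 0.29 over probe sets). On the basis of the data the numbers were taken as pairing those groups. For both agents and 20E the correlations were 0.39, 0.55 and 0.09. In both effects of 20E 1 or more correlations were under 0.1. The main fit did not use the pairing. With the replicate number as a block over all 4 groups, no call of a tested member changed for cycloheximide against no hormone. The number of arrays limits the precision, and p-values measure the spread between cultures of 1 strain. No coordinates or sequences were used here.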

Additional observations from a re-analysis of the deposited data

Results flagged for a closer look

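Gclm stood apart because its 2 responses to 20E differed. The effect of 20E with cycloheximide minus the effect of 20E alone was -1.14 on the log2 scale (standard error 0.20), made up of -1.08 with cycloheximide and 0.06 without. The value contains the difference on which Gclm was taken to have been chosen and is a description with no p. With 1 array left out in turn it ran from -1.32 to -0.95, the end nearer to 0 being without cycloheximide replicate 1, where Gclm was at 581.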

How the results depend on the processing

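Of 1026 repeats of the 58 single-gene results under the alternatives, 946 kept direction and side of the threshold, 55 lost the call, 1 gained it and 24 changed sign. For untested Gclm values, kept means the same direction and within the gene's SD inside groups of the main value. Most of the 58 were not called in the main fit, so they could not lose a call. Keap1 lost its call in 9 of 17 alternatives with 20E alone and 7 of 17 with cycloheximide present. Cat lost it in 7 of 17 for both agents against 20E and cnc 153758_at in 2 of 17 with cycloheximide. List genes ran from 0 of 17 for Men to 10 of 17 for GstD1, both with 20E. Where a value changed, the cause was not tested. For 20E alone the count of called probe sets went from 1 to 0 with a floor of 50, an adjusted p under 0.05, only the arrays compared or SAM, and was 0 to 1 with a replicate left out. With cycloheximide present, Keap1 lost its 20E call with a floor of 50, an adjusted p under 0.05 or only the arrays compared. It was also lost in 4 of 6 fits with a replicate left out. For cycloheximide alone, cnc 153758_at lost its call only in 2 of 6 fits with a replicate left out, and Gclc gained a call in 1 such fit. For both agents against 20E, Cat lost its call with a floor of 50, an adjusted p under 0.05, SAM or only the arrays compared. Its call also ended in 3 of 6 fits with a replicate left out. No tested member was called for the difference between both effects under any alternative. Member counts of these comparisons can also take in Gclm, which is not tested, so they are not given. Over all genes the replicate block raised the calls from 246 higher and 55 lower to 351 and 95 for 20E alone, from 80 to 141 lower in the presence of cycloheximide, from 141 to 213 lower for both agents against 20E, and from 11 and 8 to 24 and 32 for the difference. It changed no call of a tested member. Against 246 higher and 55 lower for 20E alone, 95 and 80 with cycloheximide present, 496 and 121 for cycloheximide and 137 and 141 for both agents against 20E, a floor of 50 gave 106 and 24, 56 and 32, 346 and 72, and 98 and 67. An adjusted p under 0.05 gave 160 and 32, 71 and 51, 372 and 76, and 99 and 64, and 2 and 2 for the difference. Only the arrays compared gave 70 and 40 with cycloheximide present and 78 and 37 for both agents against 20E, SAM gave 675 and 186 for cycloheximide, and the difference had 14 to 18 higher and 14 to 16 lower with a floor of 1, 16 added, quantile normalization or median centring. With a replicate left out the counts were 88 to 304 higher and 17 to 68 lower for 20E alone, 56 to 87 and 26 to 142 with cycloheximide present, 241 to 543 and 59 to 206 for cycloheximide, 68 to 147 and 33 to 246 for both agents against 20E, and 1 to 112 and 0 to 162 for the difference.

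Sign changes were found only in values that were not called, the largest in size being -0.19 for cnc 150433_at with 20E. Sod2 with 20E, 0.0059, became -0.030 with quantile normalization and -0.0057 with median centring. With a replicate left out, values ran from -0.13 to 0.055 for Gclc, -0.31 to 0.015 for cnc 150433_at and -0.050 to 0.039 for Sod2 with 20E, from -0.11 to 0.18 for cnc 150433_at with 20E in the presence of cycloheximide, and from -0.00011 to 0.096 for cnc 150432_at, -0.039 to 0.0017 for cnc 151078_at and -0.060 to 0.041 for Trxr1 with cycloheximide. They ran from -0.064 to 0.22 for cnc 153758_at and -0.036 to 0.075 for Sod2 with both agents against 20E, and from -0.020 to 0.11 for cnc 150432_at and -0.030 to 0.21 for Keap1 in the difference between both effects. SAM and a fit of only the arrays compared gave no value for that difference.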
